A study of Mus musculus with 4 samples.

Results

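Predicted Gm genes are mouse loci that carry a provisional name, the letters Gm followed by a number. Their entries were picked from the gene table of a pooled CRISPR-Cas9 knockout screen by this form of the name and grouped by their number of guides. The rule found 521 of the 20380 genes, or 521 of 22510 entries when microRNAs and single non-targeting guides are included. Together they carry 2508 guides. The form of the name alone decides membership, though the class was proposed with results of these data known.

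The screen was made in E14 mouse embryonic stem cells of the genotype MERVL-tdTomato, in which a red fluorescent protein reports activity of the endogenous retrovirus MERVL. Cells of both groups carried the reporter and the lentiCRISPRv2 guide library of 130209 guides against 20611 genes, and both had been through transduction for 24 h with 4 ug/mL polybrene and puromycin selection at 2 ug/mL for 48 h. The 4 libraries are 2 of reporter-positive cells, sorted at day 5, and 2 of total cells. Titles call them sequencing repeats and name no separate cultures, so any deposited p-value may measure technical spread alone. The title of the study names Ints7 deficiency.

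The authors' deposited table gives each gene 1 comparison between the groups, with no value per library, so neither depth nor a spread between libraries can be given for a gene. It holds a log2 fold change, p-values and false discovery rates (FDR) for positive and for negative change, and the numbers of guides up and guides down, which are those past a guide threshold in each direction. Which group is the numerator is not stated. Positive values are taken as enrichment in the reporter-positive cells because Ints7, the gene of the title, stands at rank 157 for positive and 18586 for negative change in the authors' deposited table. Its fold change there is small, 0.14 on the log2 scale. Under this reading Dux, a transcription factor known to activate MERVL, is lower in reporter-positive cells, at -1.41 with 3 of 3 guides down and a p of 0.00419 for negative change in the authors' deposited table. This reading is likely and not settled, and all directions turn with it. The sort left about 3.84 cells per library guide.

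Gm names were given to gene models found by computational annotation, and a model keeps its number until its function or family is known. Many such models lie in rodent gene families that grew by recent duplication, such as pheromone receptors, PRAME-like genes and the ampliconic genes of the sex chromosomes. Cas9 cuts wherever a guide finds its target, so a guide against a member of a young family can match several copies. In 2-cell embryos, MERVL and several multicopy families are active together.

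Near copies were common among the members. RefSeq (GRCm38.p6) gives a 300-base window around the gene start for 436 of the 521, reaching from 250 bases before to 50 bases after it. A window of another gene at 90% identity or more over 270 or more aligned bases was found for 203 of the 436, or 46.6%. Among other genes the share was 664 of 15746, or 4.22%. Near copies of a window show related loci, or a repeat shared by unrelated loci, and not which sites a guide matches, since guide sequences were not used here.

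The windows of 3 genes on chromosome 14 show how alike such copies are. They are printed because Gm10413 is the member with the strongest deposited call and Gm5797 and Gm5458 are its near copies among the members. Only the 250 bases before each start are given, 5′ to 3′ on the strand of the gene, from RefSeq in the build GRCm38.p6, and capitals mark bases that differ from Gm10413 where both sequences overlap.
Gm10413: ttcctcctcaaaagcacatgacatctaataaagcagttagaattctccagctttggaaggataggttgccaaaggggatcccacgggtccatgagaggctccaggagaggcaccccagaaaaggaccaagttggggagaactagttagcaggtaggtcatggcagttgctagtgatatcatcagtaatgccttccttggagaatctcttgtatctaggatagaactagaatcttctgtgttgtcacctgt
Gm5797: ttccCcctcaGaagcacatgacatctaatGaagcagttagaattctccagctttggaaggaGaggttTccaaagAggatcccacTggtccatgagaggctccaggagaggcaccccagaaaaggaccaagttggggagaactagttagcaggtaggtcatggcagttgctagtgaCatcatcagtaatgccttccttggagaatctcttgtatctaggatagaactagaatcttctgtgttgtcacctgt
Gm5458: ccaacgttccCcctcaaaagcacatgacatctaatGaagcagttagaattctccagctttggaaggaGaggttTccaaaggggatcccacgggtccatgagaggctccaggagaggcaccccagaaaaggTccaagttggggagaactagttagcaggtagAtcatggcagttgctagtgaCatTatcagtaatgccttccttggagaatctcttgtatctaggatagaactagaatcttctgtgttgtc
These stretches lie at chr14:3394843-3395092 on the plus strand for Gm10413, chr14:7332396-7332645 on the minus strand for Gm5797 and chr14:19602588-19602837 on the minus strand for Gm5458. Gm5797 differed from Gm10413 at 8 of 250 bases, an identity of 96.8%. Gm5458, whose window starts 6 bases farther upstream, differed at 8 of the 244 bases compared, an identity of 96.7%. Over the full windows Gm10413 had 11 near copies, all on chromosome 14, at 96.2% to 100% identity.

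Gm10413 was lower in reporter-positive cells under this reading of the sign, and it was the only member with an FDR under 0.05 in either direction. It lies on chromosome 14 from 3395093 to 3403534 and is annotated as protein-coding. The authors' deposited table lists it at a log2 fold change of -0.99, which is a ratio of 0.503, and gives a p of 2.2e-07 and an FDR of 0.00495 for negative change. The authors' deposited table counts 3 of its 4 guides as down and the remaining one as up. Over all 22510 entries, 0.00444% passed this threshold for negative change, which is this gene alone, and 0% passed it for positive change. By fold change alone it stood at rank 19692 of 20380 genes counted from the highest.

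Of its 11 near copies, 3 have an entry, and the others were not analysed here. The 3 had values of the same sign and no call. Gm5797 stood at -0.56 on the log2 scale, with 2 of its 3 guides down, and its p for negative change was 0.413 in the authors' deposited table. Gm5458 had a value of -0.46 with 2 of 4 guides down and a p of 0.189 in the authors' deposited table. The third near copy with a value, 4930555G01Rik, is outside the Gm names and the authors' deposited table gives it -0.17, with 2 of 5 guides down and 2 up. Other Gm genes of proximal chromosome 14 pointed both ways, with Gm3317 at -1.66 from 1 guide and Gm3264 at 0.61 from 2 guides in the authors' deposited table. All 22 members on this chromosome had a median of -0.069.

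The Gm genes had fewer guides than other genes. Full sets of 6 guides were present for 286 of 521 members, or 54.9%, against 80.5% of the 19859 other genes. Entries with 1 to 3 guides made up 21.5% of the Gm genes and 1.23% of the others. Of the 94 genes with a single guide, 40.4% are Gm genes.

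Members with many near copies had fewer guides. A full set of 6 guides was held by 73.8% of the 233 members with no near copy, by 45.9% of the 122 with 1 to 4, and by 9.88% of the 81 with 5 or more. Mean guide numbers in these classes were 5.59, 4.52 and 3.05. Other genes showed the same order, with 81.8%, 59.5% and 26.9% holding 6 guides. The sources used here do not say how guides were placed on duplicated genes.

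As a class, the Gm genes had fold changes centred near 0. Their median log2 fold change was -0.0015, with 260 above 0 and 261 below, and the middle of the distribution ran from a lower quartile of -0.35 to an upper quartile of 0.29. Other genes had a median of -0.021, olfactory receptor genes, a large family usually silent in stem cells, one of 0.031, and single non-targeting guides one of 0.019. Of the members' guides 38.1% were up and 36.8% down, against 37.4% and 38.0% for other genes. None of these differences was tested. The SD of the fold changes over the 521 members was 0.61.

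The spread of the fold changes was wider than for other genes. A log2 fold change between -1 and 1 was held by 91.4% of Gm genes and 96.0% of other genes. Of the 31 members at -1 or lower, 16 had 1 to 3 guides, and of the 14 at 1 or higher, 9 did. Split by guide number, the SD over members was 1.28 for 1 guide, 0.79 for 2, 0.56 for 3, 0.62 for 4, 0.53 for 5 and 0.45 for 6. Other genes had SDs of 0.98, 0.83, 0.66, 0.55, 0.52 and 0.46 in the same order. At 4 to 6 guides the SD was 0.49 for Gm genes and 0.47 for others, so the wider spread of the class lay mostly in entries of few guides. Non-targeting guides, also single, had an SD of 0.77.

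Medians moved little with guide number. The 38 members with 1 guide had a median of -0.042 and ran from -3.23 to 2.22, and the 37 with 2 guides had one of -0.13 and ran from -2.71 to 0.65. With 3 guides the 37 members had a median of 0.032 and a range from -1.22 to 1.38, and with 4 guides the 46 members had one of -0.16 and a range from -2.02 to 0.83. The 77 members with 5 guides had a median of -0.0030 and ran from -1.04 to 2.00. Those with 6 guides had a median of 0.023 and ran from -1.53 to 1.19. Medians of other genes, in the same order from 1 to 6 guides, were -0.091, -0.13, -0.14, -0.027, -0.0065 and -0.023.

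Near copies and spread also moved together. The SD was 0.51 with no near copy, 0.55 with 1 to 4 and 0.89 with 5 or more, while the medians were -0.0044, 0.039 and -0.027. Guide number moves with the number of copies, and the part of each was not separated. Among members with 1 to 3 guides the SD was 0.99 over 8 with no near copy, 0.70 over 32 with 1 to 4 and 1.02 over 51 with 5 or more. At 6 guides it was 0.47, 0.37 and 0.59, the last over 8 members.

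Unadjusted p-values called Gm genes at about the rate of all entries. For positive change 22 of 521 members, or 4.22%, had a deposited p under 0.05, by the authors' deposited table, against 4.95% of all entries. For negative change the count was 23, or 4.41%, against 5.08% of all entries in the authors' deposited table. Over all members these shares lie near the background. By guide number they differed, from 2.80% positive and 3.50% negative at 6 guides (8 and 10 members) to 8.70% and 13.0% at 4 guides (4 and 6 members), where other genes with 4 guides had 4.50% in each direction. At 1 guide 3 members, or 7.89%, were called in each direction, against 5.36% of other genes. These differences by guide number were not tested. For positive change the lowest FDR of a member was 0.827, and apart from Gm10413 the lowest for negative change was 0.716, in the authors' deposited table.

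A low p did not always come with guides that moved as a set. Among the 22 members called for positive change, 10 also had a guide down, and 6 had all guides up, of which 3 have a single guide. Among the 23 called for negative change, 16 also had a guide up, and 4 had all guides down, of which 3 have a single guide. Gm9733, chosen after its values were seen, was called for positive change while the authors' deposited table lists it at -0.034, with 3 of its guides up and the other 3 down. Gm5885, chosen likewise, was called while the authors' deposited table lists it at -0.30, with guides on both sides. All guides agreed in 4 of the 409 members with 4 or more guides, Gm14295 and Gm2002 upward and Gm10058 and Gm14124 downward. These shares are 0.489% in each direction, against 0.321% up and 0.459% down in other genes.

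The 10 members with the lowest p led for positive change, none of them past the FDR threshold. Gm5592, a protein-coding gene on chromosome 7 from 41284327 to 41290183, was first with a log2 fold change of 2.00, a p of 0.000655 and 4 of 5 guides up in the authors' deposited table. It stood at rank 7 of the 20380 genes by fold change. Gm7244, on chromosome 9 from 31254802 to 31275421, had a value of 1.19 with 5 of 6 guides up and none down in the authors' deposited table. Gm10439 on chromosome X had a value of 1.01 with 3 of 3 guides up in the authors' deposited table. Gm14496 at 0.65 and Gm12789 at 0.74 each had 5 of 6 guides up in the authors' deposited table. In both, as in Gm5592, the remaining guide counted as down.

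Of the other members of that leading group, some had only 1 or 2 guides. Gm8787, now named Cfap47 after proteins of cilia and flagella, had a value of 0.71 with 4 of 6 guides up in the authors' deposited table. It also had 1 guide that counted as down. Gm10228 at 2.00 and Gm1993 at 2.22 have 1 guide each in the authors' deposited table, so nothing within the gene checks their values. Gm2799, now Btbd35f2 of the X-linked BTB-domain family, is listed by the authors' deposited table at 0.13, with 1 guide on each side. A further 3 genes belonged to the 5 highest fold changes among members with 4 or more guides. They were Gm9112 at 1.23 with 4 of 5 guides up, Gm13023, now the PRAME-like gene Pramel25, at 1.12 with 3 of 5 up, and Gm6432, now Faiml, at 1.11 with 4 of 6 up in the authors' deposited table. The p for positive change was 0.0399, 0.0401 and 0.0539 in that order in the authors' deposited table.

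Negative change beyond Gm10413 was led by genes with mixed guides. Gm3776, on chromosome 9, is listed by the authors' deposited table at -0.45 with a p of 0.000829, and its 4 guides split evenly between up and down. Gm13051, now the zinc finger gene Zfp987, is listed by the authors' deposited table at -0.17, 2 of its 5 guides being down. Gm3285 at -1.15, Gm10665 at -0.55 and Gm5916 at -1.06 are listed by the authors' deposited table with 4 of 6 guides down each. Gm11128, now Nat8f6 of the N-acetyltransferase 8 family, is listed by the authors' deposited table at -0.58, with 1 guide on each side.

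Gm10058, on chromosome X, was the one leading gene with every guide down, 5 of 5, and its fold change was -0.29 in the authors' deposited table. Its window has 12 near copies. Gm20822 on chromosome Y had a value of -1.28 with 4 of 6 guides down, and Gm14744 on chromosome X one of -1.60 with 3 of 4 down, in the authors' deposited table. Other low values among members with 4 or more guides were Gm15091 at -2.02, Gm15386 at -1.68 and Gm525 at -1.53 in the authors' deposited table. Of these 3, only Gm15386 had an unadjusted p for negative change under 0.05, at 0.0344, in the authors' deposited table.

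The lowest fold changes of all came from few guides and were not called. Gm20867 on chromosome Y at -3.23 and Gm2012 on chromosome X at -2.78, each with 1 guide, had p-values of 0.0703 and 0.108 for negative change in the authors' deposited table. Gm10220 on chromosome 5 at -2.71 had 2 of 2 guides down and a p of 0.0794 in the authors' deposited table. Their windows have 27, 18 and 8 near copies. These 3 genes were chosen after their values were seen.

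Gm genes linked to the 2-cell stage showed no common direction. Of 21 names on a list of such genes and their relatives, 14 had values, with a median log2 fold change of -0.016, 7 above 0 and 7 below. The highest was Gm16381, at 0.84 with 4 of 5 guides up and a p of 0.0179 for positive change in the authors' deposited table. Of the 14, it alone had an unadjusted p under 0.05 for positive change, or 7.14%, against 4.95% of all entries. None had one for negative change. Gm16381 lies on chromosome 12 from 87644118 to 87648983, in a run of Gm genes with Gm8300, Gm21319, Gm2016 and Gm2022. Several of these are known as eIF1A-like genes of the 2-cell embryo. Those neighbours had values of -0.36 from 1 guide, -0.73 from 3, 0.64 from 2 and 0.10 from 6 in the authors' deposited table. The run thus spanned both signs.

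The other Gm genes of this list lay on both sides of 0. PRAME-like members were Gm12794 at 0.51, Gm13119 at -0.14, Gm13078 at -0.39 and Gm13083 at -0.44 in the authors' deposited table. Near them, Gm13040 had a value of 0.45 and Gm13043 one of 0.15 in the authors' deposited table. Gm4340 on chromosome 10 had a value of 0.11, Gm16367 one of -0.47 and Gm20767 one of -0.63 in the authors' deposited table. The 19 named relatives with values, among them Zscan4, Tdpoz and Usp17-like genes, had a median of -0.081 and ran from -2.34 to 1.01. For negative change 4 of them were called, or 21.1%, against 5.08% of all entries. They were Dux at -1.41 and Usp17le at -1.89, each with 3 of 3 guides down, Usp17la at -0.92 with 4 of 6 down, and Usp17lc, whose value of 0.29 has the other sign, in the authors' deposited table. For positive change 1 was called, or 5.26%, against 4.95%. That gene, Eif1a, the named relative of the eIF1A-like genes, had a value of 0.78 with 5 of 6 guides up in the authors' deposited table.

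In the RefSeq table, another name is given to 183 of the 521 members, 337 keep their Gm symbol and 1, Gm14430, matched none. Renamed members had a median of 0.057 and those with a Gm symbol one of -0.029. Name families with 3 or more members number 13 and hold 92 genes, none of which passed the FDR threshold. They were formed from renamed members alone, so relatives that keep a Gm symbol are left out. The families are described by their values, and none was tested. Those of 3 members had medians of 0.38 for Fthl17, with all 3 above 0, 0.071 for Cfap, -0.047 for Olfr and -0.19 for Tdpoz.

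PRAME-like genes encode leucine-rich repeat proteins of the germ line and early embryo. The 12 members renamed as such had a median of 0.19, with 8 above 0. Gm13040, Gm13043 and Gm13102, which lie among such genes on chromosome 4, keep a Gm symbol and are not counted here. Calls for positive change were made for 2 of the 12, where 4.95% of all entries were called, and none was made for negative change. Of their 66 guides 43.9% were up and 24.2% down. Values ran from -0.44 for Gm13083 to 0.95 for Gm13128, now Pramel30, and 1.12 for Gm13023 in the authors' deposited table. Gm13128 had 4 of 6 guides up and none down in the authors' deposited table.

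Vomeronasal type 1 receptors, which detect pheromones, made up 10 renamed members with a median of 0.16, and 9 lay above 0. The exception was Gm4175, now Vmn1r247, at -0.31 from 1 guide, and the highest was Gm8693, now Vmn1r257, at 1.71 from 1 guide, in the authors' deposited table. These 10 genes hold 29 guides, of which 51.7% were up and 20.7% down. Calls for positive change were made for Gm5728 and Gm8693, or 20% of the 10, against 4.95% of all entries. None was made for negative change. Gm8693 and Gm4498 had 40 near copies each, the most of any member.

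BTB-domain genes, all but Btbd18 in the X-linked Btbd35 family, had a wide range around a median of 0.13. Their 13 members hold 34 guides and ran from -1.46 for Gm3701 to 1.58 for Gm2863, each with 1 guide, in the authors' deposited table. The members with 5 or 6 guides lay closer to 0, at -0.16 for Gm21950, -0.082 for Gm10921 and 0.36 for Gm13718, now Btbd18, in the authors' deposited table.

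Zinc finger genes, several in a cluster of chromosome 4, encode DNA-binding proteins of the kind that often silence retroelements. The 12 renamed members had a median of 0.17, with 8 above 0. Gm13242, now Zfp980, was highest at 0.89 with 2 of 3 guides up, and Gm13251, now Zfp992, was lowest at -2.50 from 1 guide, in the authors' deposited table. Gm4944, now Zfp994, is listed by the authors' deposited table at 0.82, 4 of its 6 guides being up. None of these 12 was called for positive change, against 4.95% of all entries. For negative change 1, Gm13051, was called, or 8.33%, against 5.08% of all entries. Zinc finger genes that keep a Gm symbol were not counted here.

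Further name families had medians on both sides of 0. Alpha-defensins, antimicrobial peptides of the gut, had a median of -0.29 over 7 members with 2.14 guides on average, from -1.05 for Gm15292 to 1.48 for Gm15284 in the authors' deposited table. Pate genes, small secreted proteins of prostate and testis, had a median of 0.26 over 8 members, with 6 above 0 and 47.8% of 46 guides up. Histone H2A variants of the testis had a median of 0.18 over 7 members, from -0.50 for Gm5382 to 0.90 for Gm5132 in the authors' deposited table. All 4 claudin-34 members lay below 0, from -0.97 for Gm16390 to -0.096 for Gm6927 in the authors' deposited table, and none of them was called. Arylacetamide deacetylase-like genes had a median of -0.29 over 7 members. Gm13124, at 0.64 with 5 of 6 guides up and none down in the authors' deposited table, was the one called for positive change. That is 14.3% of the 7, against 4.95% of all entries, and none was called for negative change.

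On the sex chromosomes Gm genes make up a large part of the genes screened. They number 22 on chromosome Y, which is 62.9% of its genes in the table, and 90 on chromosome X, or 10.8%, against 2.56% of all genes. The 22 Y-linked members had a median of -0.10 and ran from -3.23 to 0.69. Of these, 1, or 4.55%, was called for negative change and none for positive change. The 90 X-linked members had a median of -0.028 and ran from -2.78 to 2.22, with 5, or 5.56%, called in each direction. Over all entries 4.95% were called for positive and 5.08% for negative change. Autosomal medians lay between -0.30 for 21 members on chromosome 6 and 0.24 for 11 on chromosome 13.

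Some Gm genes lie in clusters along the chromosomes. Consecutive starts within 500 kb joined 128 of the 521 members into 17 runs of 5 or more. Runs of other genes were not counted. Median log2 fold changes of the 17 runs ranged from -0.48 to 0.40. On chromosome 7 from 19852003 to 20576241, among vomeronasal receptor genes, all 7 members lay above 0, between 0.0067 and 0.53. All of them but Gm19345 are among the renamed vomeronasal receptors above, so the run and that family share their values. A second run among vomeronasal receptor genes, on the same chromosome from 22463110 to 23275243, had the lowest median of the 17 runs, -0.48, with 4 of 5 members below 0 and 63.2% of their 19 guides down. On chromosome 17 from 35617923 to 36168602, among histocompatibility genes, all 5 lay below 0, between -0.39 and -0.066, and 51.9% of their 27 guides were down. The PRAME-like and deacetylase-like cluster of chromosome 4, from 143511343 to 144786583, holds 17 members with a median of 0.14, of which 3 were called for positive change, against 4.95% of all entries, and none for negative change. Those 3, Gm13023, Gm13128 and Gm13124, are the called genes of the PRAME-like and deacetylase-like families above.

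Other runs spread around 0. The 9 members in the keratin-associated cluster of chromosome 10 had a median of -0.013, and 13 in that of chromosome 11 one of 0.062. Among interferon genes of chromosome 4, 9 members had a median of -0.13. A run of 7 on chromosome X from 25277487 to 26935669, with 12 guides in all, had a median of -0.027 and values from -2.78 to 2.22. The 5 members of a run on chromosome Y, from 2720339 to 3783271, had the highest median of a run, 0.40.

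Under more than 1 entry, 4 genes were targeted, so that their entries can be read side by side. Whether the entries of a gene share guides is not known, since guide sequences were not used here. Cfap47 matches both Gm8787 at 0.71 and Gm7173 at 0.071, with 4 and 2 of 6 guides up in the authors' deposited table. The antimicrobial gene Defb41 matches Gm15386 at -1.68 from 4 guides and is itself listed at 0.17 from 6 guides in the authors' deposited table. Krtap16-1, a keratin-associated gene, had a value of 0.49 and its other entry Gm11570 one of 0.21 in the authors' deposited table. Mup13, a major urinary protein, had a value of 0.23 from 1 guide and its other entry Gm2083 one of 0.067 from 6 in the authors' deposited table. Signs agreed in 3 of the 4 pairs, and the matches rest on RefSeq synonyms.

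A set of 7 renamed members bears the name of a copy of another gene, and their values can be read beside the parent gene. Gm8994, now Eif4a3l1, had a value of -0.51 with 3 of 5 guides down, and Eif4a3, a core factor of the exon junction complex, one of -0.65 with 3 of 5 down in the authors' deposited table. Gm13826, now Rpl37rt, had a value of -0.21 with 2 of 5 guides down, and the ribosomal protein gene Rpl37 one of -1.21 with 5 of 6 down in the authors' deposited table. Gm5506, now Eno1b, had a value of 0.71 and the glycolytic enzyme gene Eno1 one of 0.12 in the authors' deposited table. In the other 4 pairs the signs differed. Gm3258, now Supt4b, had -0.34 against 0.044 for Supt4a, and Gm6251, now Rpl32l, had 0.38 against -0.11 for Rpl32 in the authors' deposited table. Gm10094, now Sap18b, had -0.063 against 0.14 for Sap18, and Gm6531, now Cks1brt, had -0.58 against 0.23 for Cks1b in the authors' deposited table. Of these 14 entries only Eif4a3 had an unadjusted p under 0.05, at 0.0183 for negative change in the authors' deposited table. Over all entries 5.08% were called for negative and 4.95% for positive change.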

How the data were processed

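Guide abundance in genomic DNA was compared between 2 libraries of MERVL-positive and 2 of total cells. The submitters' processing notes name MAGeCK and mm10; the sources used here do not state version, settings or normalization. Per the file headers, the authors deposited per gene a log2 fold change, p-values and false discovery rates in each direction, a score (not used for results), a rank, and counts of guides: all guides, and those past a guide threshold up and down. The log base is taken as 2, as MAGeCK writes it, and is not in the header.

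Deposited p and FDR were used with a threshold of 0.05, and no model was fitted because the values are 1 comparison per gene. Depth per library is unknown. The members and lists were chosen with earlier results of these data known. Names and positions came from the RefSeq table of GRCm38.p6, the assembly of mm10. Near copies were sought with blastn 2.17.0 (word size 16, plus strand) between 300-base windows around gene starts, in place of the protein comparison first planned. It was tested on simulated windows. Python 3.11.15 and pandas 2.3.3 were used.

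Genes named were the members past the FDR threshold, the 10 with the lowest p in each direction, the 5 highest and 5 lowest fold changes among members with 4 or more guides, and the 2-cell list. Other genes, the name families, the genes under more than 1 entry and the copies of parent genes were chosen after their values or names were seen.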

Additional observations from a re-analysis of the deposited data

How the results depend on the processing

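With a limit of 0.01 on the deposited p, 6 of the 521 members were called for positive and 8 for negative change. The share of all entries under this limit was not counted, so these counts stand without a background. With current symbols alone, 337 members, 14 (4.15%) were called for positive and 17 (5.04%) for negative change. With 4 or more guides the counts were 17 (4.16%) and 19 (4.65%), against 22 and 23 over all members. Over all entries 4.95% and 5.08% were called at the limit of 0.05. With Benjamini-Hochberg adjustment over gene entries alone, Gm10413 was again the only member past 0.05, at 0.00448, and the next stood at 0.704. No further member passed a deposited FDR of 0.1. In place of a median of -0.0015, the members had -0.056 as a mean, 0.0046 for the 409 members with 4 or more guides, -0.029 for current symbols and, chosen after seeing the data, -0.0044 for the 233 members with no near copy and 0.0085 with members weighted by guides. The share of guides up ranged from 37.8% to 38.4% and that of guides down from 36.8% to 37.0%.

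No paired analysis was possible because the deposited columns carry no value per library, and for the same reason no fit without a library was run. The protein comparison of copies was not run. At about 3.84 sorted cells per library guide, a missing call does not show that a gene is without effect.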
